A study of Mus musculus with 18 samples.

Results

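The Brg1 deletion experiment compared 4 ATAC-seq libraries of mouse embryonic stem (ES) cells out of the 18 libraries of the series. ATAC-seq marks open chromatin: a transposase cuts and tags DNA where it is accessible, and sites with many tagged fragments are called as peaks. The members were the 2 libraries titled Brgflfl Tax, from cells given tamoxifen, and the 2 titled Brgflfl EtOH, from cells given ethanol. Overlapping peaks of the 4 lists were merged into 165650 regions on the mm9 build.

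The genotype was Brg1fl/fl with Actin-CreER in all 4 libraries, so the ethanol controls carried the floxed alleles and the inducible Cre recombinase too. Actin-CreER puts a Cre recombinase that tamoxifen activates under an actin promoter. Cells grew on gelatin in serum with LIF, were exposed for 24 h to 0.8 µM tamoxifen or to ethanol, and had 48 h of fresh medium before harvest. By the protocol, 50000 viable cells were sorted for a library on Annexin V and 7-AAD. The 2 libraries of a group come from 2 passages of the same line, and any p-value therefore covers variation among passages and preparations of that line. The groups also differ in tamoxifen exposure and in Cre activity, which cannot be told apart from the deletion here. The Baf53afl/- line used below for comparison also carries Actin-CreER and had the same tamoxifen and ethanol treatments, and its controls lack 1 Baf53a allele. Wild-type libraries used below as an outside reference were 5 DMSO controls, 2 of 24 h and 3 of 1 h by their titles.

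BRG1 is an ATPase of the BAF (mammalian SWI/SNF) chromatin remodelling complex. The complex uses ATP to slide or evict nucleosomes and keeps many enhancers and other regulatory elements open. In ES cells BRG1 is the ATPase of the ES-cell form of BAF and is needed for self-renewal, and BAF53A is an actin-related subunit of the same complex. The study asked how this complex works together with topoisomerase II. The Brg1 locus, marker genes of ES cells and other gene lists were not analysed here, because no gene annotation of mm9 was used, and regions are given by coordinate alone.

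The ethanol 1 list held 107473 peaks and ethanol 2 held 85007. The tamoxifen 1 list held 84763 peaks and tamoxifen 2 held 46431. Tamoxifen 1 was thus as long as ethanol 2, and tamoxifen 2 was much the shortest of the lists. The files give no read counts, so sequencing depth is not known, and its part in these lengths was not tested. The peaks covered 29.5 and 24.3 Mb with ethanol against 24.6 and 11.6 Mb with tamoxifen. Their median widths were 205 and 215 bp against 213 and 186 bp, and the groups overlapped. In the same order, 23.2% and 13.1% against 21.6% and 16.7% of peaks touched no peak of the 5 wild-type DMSO lists. The groups overlapped in this share of peaks beyond wild type (19.2% ± 3.46 with tamoxifen and 18.1% ± 7.17 with ethanol, SD, n = 2 each; two-sided exact permutation p = 1). With 2 against 2 libraries the smallest p such a test can give is 0.33, so no single value of this kind can pass 0.05.

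Merged regions fell into 15 detection patterns over the 4 lists. A peak in all 4 lists was found in 27034 regions (16.3%), which were wide, with a median of 563 bp. Both ethanol lists shared 57176 regions, and 13894 of these, 24.3%, had a peak in neither tamoxifen list. These are called lost regions below. Of the remaining regions shared by ethanol, 14897 had a peak in tamoxifen 1 alone and 1351 in tamoxifen 2 alone. Both tamoxifen lists shared 31671 regions, and 1618 of these, 5.11%, had a peak in neither ethanol list and are called gained regions. Regions found in 1 list alone numbered 38555 for ethanol 1, 18693 for ethanol 2, 25273 for tamoxifen 1 and 8875 for tamoxifen 2. When every list was held to the length of the shortest, 46431 peaks, lost regions numbered 6546 and gained ones 2614.

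**Figure D1:**
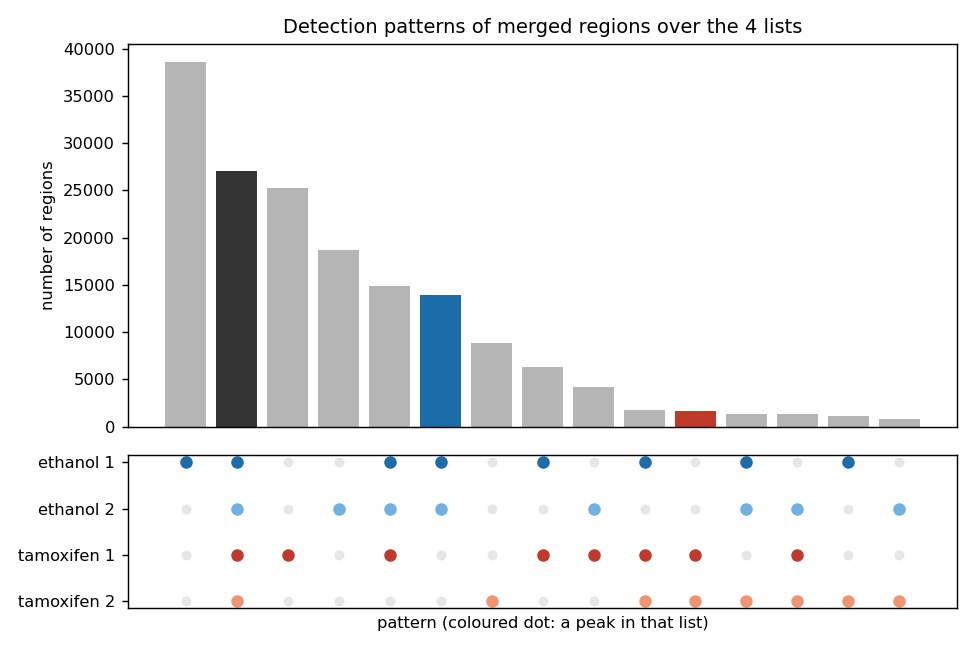
Bars give the number of merged regions (y axis) with each of the 15 detection patterns over the 4 Brg1 libraries, and the dots under each bar mark the lists with a peak. Black is a peak in all 4 lists (27034 regions), blue is lost (13894) and red is gained (1618), while grey patterns are split within a group.

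Loss counts depend on single libraries, since a pattern over 3 lists is easier to meet. There were 33481 lost regions without ethanol 1, 53128 without ethanol 2, 28971 without tamoxifen 1 and 15254 without tamoxifen 2. Gained regions numbered 3363, 2942, 10815 and 26994 in the same order. Without tamoxifen 2 the gained regions thus outnumber the lost ones, under a rule that then asks less of a gain than of a loss. Pairs of lists give a view that does not need such patterns. Of the 21382 regions whose score lay in the upper 20% of ethanol 1, ethanol 2 lacked 375 (1.75%), tamoxifen 1 lacked 1998 (9.34%) and tamoxifen 2 lacked 5631 (26.3%). Of the 16946 such regions of ethanol 2, ethanol 1 lacked 100 (0.590%), tamoxifen 1 lacked 988 (5.83%) and tamoxifen 2 lacked 3291 (19.4%). In the other direction, ethanol 1 lacked 275 (1.63%) and ethanol 2 lacked 358 (2.12%) of the 16874 strong regions of tamoxifen 1. The strong sites of tamoxifen 1 thus almost all had a peak in ethanol. Both tamoxifen lists lacked more strong ethanol sites than the ethanol lists lacked of each other. The tamoxifen lists also differed between themselves: tamoxifen 2 lacked 1506 (8.92%) of the strong regions of tamoxifen 1, which is close to what tamoxifen 1 lacked of ethanol 1.

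Lost regions were narrow sites. Their median width was 271 bp (quartiles 210 and 353 bp), against 563 bp for regions kept in all 4 lists and 236 bp for gained ones. Among the regions shared by ethanol, ordered by mean ethanol score into 5 equal classes, 49.3% of the weakest and 2.51% of the strongest class were lost. Width separated them within a class of strength: in the strongest class, cut into 3 equal groups by width, 229 of the narrowest regions were lost (6.01%), 50 of the middle group (1.31%) and 8 of the widest (0.210%). In the next class the shares were 21.3%, 12.4% and 2.68%. Both measures come from the ethanol lists that also define loss, so these shares are a description.

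Lost regions had a peak in all wild-type controls less often than the regions shared by ethanol at large, of which they are part. A peak in all 5 wild-type DMSO lists was found for 3692 lost regions (26.6%), against 58.6% of the 57176 shared regions. In each of the 14 lists outside the Brg1 line, 763 of the 13894 lost and 22051 of the shared regions had a peak. No wild-type DMSO list held a peak for 938 lost regions (6.75%), against 2.43% of the shared ones. Gained regions seldom had a peak throughout the wild-type controls: 86 (5.32%) had one in all 5 wild-type DMSO lists and 378 (23.4%) in none. A peak in all 14 lists outside the line was found for 1. Of the 31671 regions shared by tamoxifen, 71.6% had a peak in all 5 wild-type DMSO lists. Regions found in just 1 ethanol and 1 tamoxifen list had low shares too, 5.96% to 10.2%. A low share is thus not particular to gained regions. For 158 gained regions (9.77%) no list outside the 2 tamoxifen ones held a peak.

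The strongest lost sites had scores near the top of both ethanol lists. At chr1:176356708-176357106 the peak stood at percentile 97.6 of ethanol 1 and 96.4 of ethanol 2, and neither tamoxifen list had one. The site at chr7:84956718-84957213 stood at percentiles 96.1 and 97.6, and that at chr6:129299622-129300141 at 98.2 and 95.3. All 3 had a peak in each of the 14 lists outside the Brg1 line, the Baf53a tamoxifen lists included. Others lacked a peak in some of the 14 lists outside the line. The site at chr6:67962093-67962621 (percentiles 99.1 and 94.6) had a peak in 9 of those 14 lists, and 1 of the 5 lists of wild-type cells given the topoisomerase II inhibitor ICRF-193 was among them. On chromosome 17, chr17:82395188-82395759 (98.0 and 93.4) had a peak in all 5 wild-type DMSO lists and both Baf53a ethanol lists, and in neither Baf53a tamoxifen list. The strongest lost site of chromosome 18, chr18:72875220-72875677 (97.0 and 93.7), had a peak in all 5 DMSO lists and in none of the 5 ICRF-193 lists. The 15 strongest lost regions stayed lost in each of 5 other settings with all 4 libraries. The settings that shorten the lists or ask for more coverage only take detections away. They could not give such a region a tamoxifen peak and are no test of the loss.

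Loss was spread over the genome. From 21.2% (chromosome 11) to 28.0% (chromosome 14) of the regions shared by ethanol were lost on each autosome and 25.8% on X. Of the lost regions, 7050 stood alone, bounded on both sides by shared regions that kept a tamoxifen peak, and 1883 runs held 2 consecutive lost regions. The longest runs held 8 and there were 4 of them. They spanned chr7:77514899-77922912, chr12:68906813-70050281, chr14:35793959-36914338 and chr18:55158251-55976186, and the last held 2 regions of all 5 wild-type DMSO lists. Around a lost region in the strongest class, 38.5% of the neighbouring shared regions were lost as well, against 23.9% around all regions of that class. For lost regions of every class the contrast was smaller, 29.5% against 24.3% around all regions shared by ethanol. The median distance from a strong lost region to the nearest region shared by ethanol was 24.8 kb, against 10.3 kb for the class. It was 10.4 kb for all lost regions and 8.44 kb for all regions shared by ethanol.

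Among gained regions, the site at chr17:3077837-3078001 was the strongest, at percentiles 91.8 and 96.0 of the tamoxifen lists, and it had a peak in 8 of the 14 other lists. The next, chr12:68160335-68160618, stood at percentiles 84.3 and 92.6 and had a peak in 4 other lists. The site at chr4:145438194-145438361 (87.1 and 82.1) had none. These are narrow sites of 165, 284 and 168 bp.

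A set of sites chosen without the Brg1 line gives the comparison free of that choice. The reference set was the 37851 regions with a peak in all 5 wild-type DMSO lists. Ethanol 1 had a peak in 93.7% of them and ethanol 2 in 92.1%, while tamoxifen 1 had one in 82.9% and tamoxifen 2 in 61.8%. The groups did not overlap, and the mean difference, tamoxifen minus ethanol, was -20.6 points (72.3% ± 14.95 against 92.9% ± 1.17, SD, n = 2 each; two-sided exact permutation p = 0.33, the smallest possible). Between the lists of near-equal length, tamoxifen 1 minus ethanol 2 was -9.16 points. With equal list lengths the 4 values were 79.2%, 79.4%, 72.0% and 61.8% in the same order. A peak in both ethanol lists and in neither tamoxifen list was found for 3699 reference regions (9.77%), and the reverse for 85. These libraries are bulk samples, so that fewer cells with an open site and less opening per cell cannot be told apart.

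The strongest reference sites kept their peaks most often, and the ethanol lists were nearly complete there. In the strongest of 5 equal classes by wild-type score, a peak was found for 99.7% of 7571 regions in ethanol 1, 99.6% in ethanol 2, 98.1% in tamoxifen 1 and 91.1% in tamoxifen 2. Tamoxifen minus ethanol was -5.09 points (94.6% ± 4.94 against 99.7% ± 0.0747, SD, n = 2 each; two-sided exact permutation p = 0.33). Without tamoxifen 2 the difference was -1.60 points and without tamoxifen 1 it was -8.59 points. In the middle class the values were 96.8%, 95.8%, 84.2% and 61.3%, and in the weakest 80.5%, 76.1%, 63.9% and 33.0%. A peak in both ethanol lists alone was found for 1162 regions of the weakest class and 104 of the strongest, and a peak in both tamoxifen lists alone for 62 and 0.

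**Figure D2:**
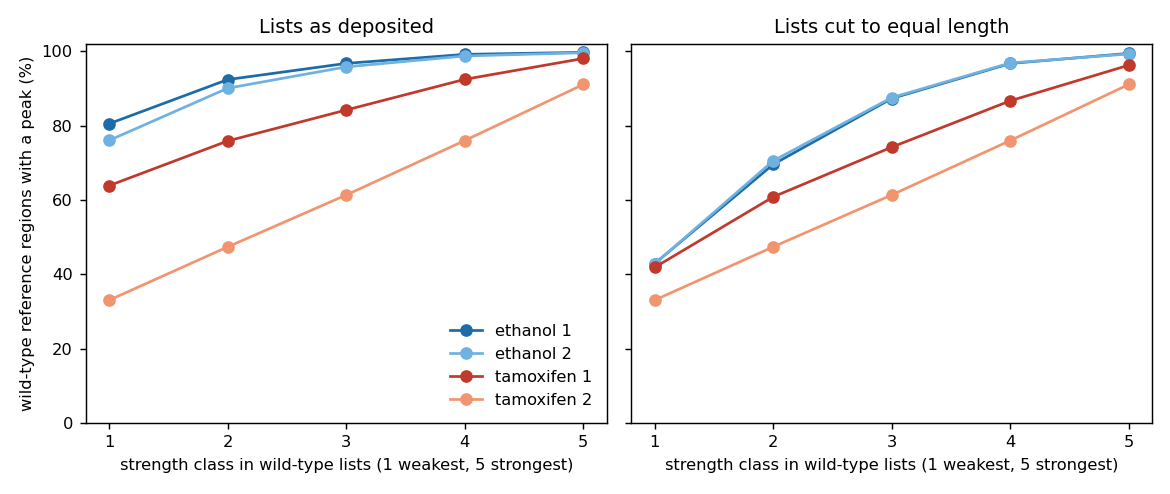
Each line is 1 library, and points give the percent of wild-type reference regions with a peak (y axis) in 5 classes of wild-type strength (x axis), for the lists as deposited (left) and held to equal length (right). Both tamoxifen lists lie below both ethanol lists in each class, from 80.5%, 76.1%, 63.9% and 33.0% in the weakest to 99.7%, 99.6%, 98.1% and 91.1% in the strongest class of the deposited lists.

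Width separated the reference sites as well. In the narrowest of 5 equal classes of width, 81.8% and 78.4% had a peak with ethanol against 63.9% and 35.6% with tamoxifen. In the widest class the values were 99.9% and 99.6% against 98.6% and 93.3%. This held within a class of strength: in the strongest, the narrowest of 3 equal groups had a peak in 99.4% and 99.0% of cases with ethanol against 95.2% and 81.3% with tamoxifen. In its widest group the values were 100% and 99.96% against 99.8% and 98.4%. Narrow sites of good strength thus went without a peak more often than wide ones after tamoxifen, with little room for a difference in ethanol.

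Sites far from other open sites were missed more often after tamoxifen. Reference regions were put into 5 equal classes by the distance to the nearest other reference region, with a median of 1419 bp in the closest and 66489 bp in the most isolated class. In the most isolated class ethanol 1 had a peak in 94.6% and ethanol 2 in 91.2%, against 77.4% in tamoxifen 1 and 55.2% in tamoxifen 2. In the next class these were 94.3% and 92.5% against 84.2% and 63.9%, and the first 4 classes were nearly level. The most isolated class minus the mean of the other 4 was 1.04 and -1.13 points with ethanol and -6.96 and -8.27 points with tamoxifen. The change of the gap with tamoxifen was -7.57 points (two-sided exact permutation p = 0.33, the smallest possible), and the libraries of each group lay close together. At equal list length the gaps were 3.24 and 1.10 against -6.70 and -8.27 points. This split of the reference sites was added after the data were examined.

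Isolated sites did not have lower scores in wild type. Their median wild-type percentile was 78.7, against 72.3 in the closest class. Within the middle class of strength, ethanol 2 had a peak in 93.9% of the isolated and 96.3% of the other sites, tamoxifen 1 in 75.5% and 86.5%, and tamoxifen 2 in 51.7% and 63.9%. Within the strongest class, tamoxifen 1 had a peak in 95.9% of the isolated and 98.8% of the other sites, and tamoxifen 2 in 83.6% and 93.5%. The ethanol lists had a peak in 99.8% and 99.56% of the isolated and 99.7% and 99.67% of the other sites of the strongest class.

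**Figure D3:**
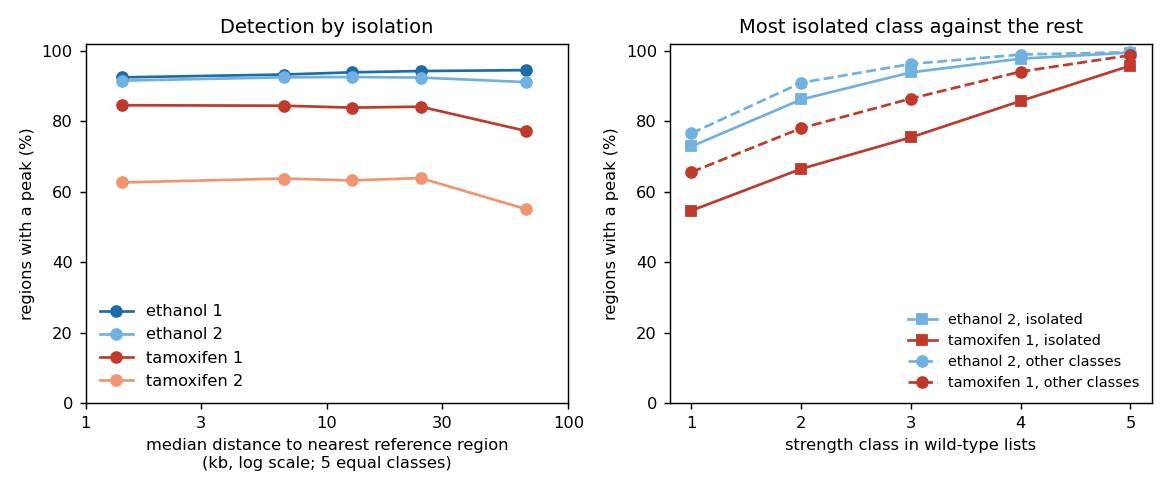
Left, the percent of reference regions with a peak (y axis) in each of the 4 libraries against the median distance to the nearest other reference region in 5 equal classes (kb, log scale). Right, ethanol 2 and tamoxifen 1, the lists of near-equal length, by strength class for the most isolated class (squares, solid) and the others (circles, dashed); tamoxifen 1 drops from 86.5% to 75.5% in the middle class and ethanol 2 from 96.3% to 93.9%.

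The Baf53a line was measured on the same reference sites. Its ethanol lists had a peak in 95.6% and 87.3% and its tamoxifen lists in 89.0% and 83.1%, and the groups overlapped. The change was -5.42 points there and -20.6 points in the Brg1 line, a difference of -15.1 points (two-sided exact permutation of treatment within lines, 36 arrangements, p = 0.5). On the most isolated class the difference between the lines was -20.6 points (exact permutation p = 0.278), and on the strongest class -4.41 points (exact permutation p = 0.33). The isolation gap of the Baf53a lists was -0.53 and -0.26 points with ethanol and -1.27 and -1.13 with tamoxifen. The change of the gap in the Brg1 line minus that in the Baf53a line was -6.76 points (exact permutation p = 0.33). The smallest p these arrangements allow is 0.0556. They exchange treatment labels within each line, which tests for no change in either line and not for equal changes. A difference between the deletions was thus not tested directly and was not shown. Of the 6572 lost Brg1 regions with a peak in both Baf53a ethanol lists, 3102 (47.2%) kept a peak in both Baf53a tamoxifen lists and 1183 had a peak in neither. Of the 25287 such regions among those kept in all 4 Brg1 lists, 23348 (92.3%) kept both and 220 had neither. Kept regions were also stronger, at a median ethanol percentile of 80.6 against 48.3 for lost ones. In the strongest class by ethanol score, 72.8% of lost and 97.4% of all regions had a peak in both Baf53a tamoxifen lists. These last shares ask for no peak in the Baf53a ethanol lists.

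Sites that kept a peak in all 4 lists were compared by rank. For each of the 27034 regions the best score was ranked among these same regions within each list, on a percent scale with 100 the strongest. A rank is a position, not a level. By limma on the logit of the rank, 434 regions fell (1.61%) and 13 rose (0.0481%) at an adjusted p under 0.05. On simulated data this fit called 26% of falls of 3 on the logit scale and 78% of rises of 3. Most simulated falls were thus missed, and the counts of falls and rises may not be equally sensitive. Each change was put into 50 regions drawn from all those tested, with the same spread in both groups. The simulation therefore does not give the sensitivity at the high ethanol ranks where most called falls lie. The 434 regions ranked high with ethanol, at a median of 94.0% in ethanol 1 and 92.4% in ethanol 2, and stood at 53.1% in tamoxifen 1 and 26.2% in tamoxifen 2. These ranks chose the regions and are given as a description. In 202 of them both tamoxifen ranks were under 50%. Without any test, the groups did not overlap in 19.4% of the tested regions in the lower direction and 23.7% in the higher one, so that lack of overlap alone is common. Spearman correlations of the scores across these regions were 0.818 between the ethanol lists, 0.741 between the tamoxifen lists and 0.624 to 0.747 between groups, a description over regions that share their libraries.

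These calls rest on few libraries. The number that fell was 12 with ethanol 1 left out, of which 12 were among the 434, and 20 with ethanol 2 left out, of which 19 were. It was 1102 (418 shared) without the first tamoxifen library and 370 (267 shared) without the second. On the untransformed rank fraction limma called 0 regions, with 3228 at an unadjusted p under 0.05 against 3348 on the logit.

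**Figure D4:**
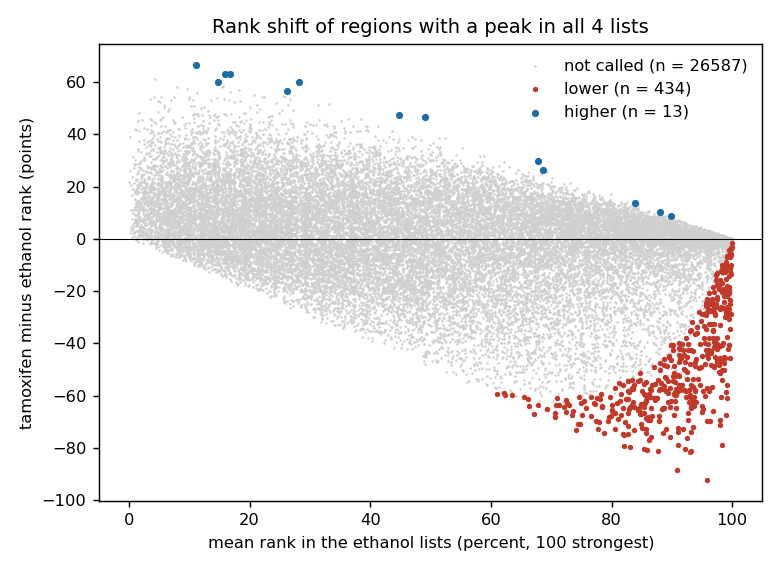
Each point is 1 of the 27034 regions with a peak in all 4 lists, with its mean ethanol rank (x axis, percent) and the tamoxifen minus ethanol rank (y axis, points). Red regions fell (434) and blue regions rose (13) by limma at an adjusted p under 0.05, and the red ones sit at high ethanol rank, with a median shift of -53.9 points.

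The site at chr10:106965801-106966156 ranked at 97.0% and 94.6% with ethanol and at 4.65% and 2.47% with tamoxifen. Its logit rank fell by 6.51 (SE 0.67, limma adjusted p = 0.0002376), and its peak covered 356 and 342 bp against 146 and 149 bp. At chr7:124829792-124830351 the ranks were 89.2% and 92.3% with ethanol against 2.45% and 2.47% with tamoxifen, a fall of 5.98 (SE 0.76, limma adjusted p = 0.0007568). At chr10:47350982-47351701 they were 98.5% and 98.1% against 30.8% and 8.12%, a fall of 5.68 (SE 0.60, limma adjusted p = 0.0002376). All 3 sites had a peak in all 5 wild-type DMSO lists, all 5 ICRF-193 lists and all 4 Baf53a lists. Their nearest region shared by ethanol lay 33.8, 49.3 and 112.9 kb away. Among the 8 regions with the largest falls this distance ran from 5.975 to 116.5 kb. The shortest was that of the largest fall, chr1:196572975-196573393, and for chr8:75178545-75179336 it was 9.74 kb. In the site at chr2:107355386-107356149 the tamoxifen lists parted: it ranked at 99.9% and 99.5% with ethanol, at 91.6% in tamoxifen 1 and at 16.5% in tamoxifen 2. The 8 regions with the largest falls lost their call on the untransformed rank fraction, and 7 of the 8 lost it without ethanol 1 and 7 without ethanol 2. The limma adjusted p without ethanol 1 and without ethanol 2 was 0.126 and 0.0564 for chr10:106965801-106966156, and 0.155 and 0.164 for chr7:124829792-124830351. For chr10:47350982-47351701 it was 0.0614 without ethanol 1.

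Nearly all of the 434 regions were open in the other lines, as were the 4672 uncalled regions of ethanol rank over 80%. All 5 wild-type DMSO lists held a peak for 425 of the 434 (97.9%), against 99.4% of the uncalled ones. All 5 ICRF-193 lists held one for 408, against 4623 of the uncalled regions, and both Baf53a tamoxifen lists for 423, against 4662. The regions lay on 20 chromosomes with 2 to 43 on each. Their peaks covered a median of 492 and 479.5 bp with ethanol and 345 and 192.5 bp with tamoxifen. Relative to the list median, 395 of the 434 were narrower with tamoxifen, by a median log2 change of -0.57, where strong regions that were not called (ethanol rank over 80%) changed by 0.16. Score and width of a peak are read from the same signal and are not independent.

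Falling rank went with isolation too. The 434 regions lay a median of 21.4 kb from the nearest region shared by ethanol, against 7.96 kb for all tested regions and 10.4 kb for uncalled regions of ethanol rank over 80%. Over 5 equal classes of that distance the share that fell was 0.555%, 0.832%, 1.15%, 1.57% and 3.92% from the closest to the most isolated. Among regions of ethanol rank over 80% these shares were 3.73%, 4.57%, 5.25%, 6.22% and 14.5%. Of the neighbouring shared regions of the 434, 34.1% were lost, against 22.8% around all tested regions of that rank.

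The 13 regions that rose started from lower ranks. The site at chr4:146135260-146135524 ranked at 42.2% and 56.0% with ethanol and at 97.3% and 93.8% with tamoxifen (logit change 3.20, SE 0.54, limma adjusted p = 0.005124). At chr6:47689771-47690056 the ranks were 59.2% and 76.3% against 97.0% and 97.7% (2.86, SE 0.51, limma adjusted p = 0.007388). A pair of rising sites lay close together on chromosome 8. At chr8:19931585-19932007 the ranks were 10.5% and 18.9% against 77.4% and 71.9%, and at chr8:19979847-19980217 they were 33.4% and 19.1% against 88.4% and 77.3%. All 13 also had a peak in both Baf53a tamoxifen lists. The 8 largest rises lost their call on the rank fraction and without either ethanol library. No region rose without ethanol 1, 1 rose without ethanol 2, 109 without tamoxifen 1 and 14 without tamoxifen 2.

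Peak width in the 27034 regions gave no call. The median length under peaks was 432 bp in ethanol 1, 413 bp in ethanol 2, 432 bp in tamoxifen 1 and 272 bp in tamoxifen 2, so only the short list stood apart. Relative to these medians, limma called 0 regions (0% of those tested), with 1950 (7.21%) at an unadjusted p under 0.05, 958 narrower and 992 wider, and a smallest adjusted p of 0.52. On simulated data this fit missed most of the width changes put in, so the lack of calls does not show that widths were alike. The width change was also set against that of the Baf53a line in 23428 regions with a peak in all 8 lists. For this difference between deletions limma called 0 regions as well, with 1273 (5.43%) at an unadjusted p under 0.05 and a smallest adjusted p of 0.723.

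Peaks were then counted in 1 Mb bins, as a share of each list. Of 2235 bins, 64 fell (2.86%) and 16 rose (0.716%) by limma at an adjusted p under 0.05, with the spread estimated over all 18 libraries. The bins that fell held a median of 32 and 23.5 peaks with ethanol and 13.5 and 6 with tamoxifen. Over all bins tested the medians were 44 and 33 against 32 and 17. Both tamoxifen lists held fewer peaks than both ethanol lists in 1085 of the 2235 bins, and in all 64 that fell. The bins that fell were poor in wild-type reference regions, with a median of 10, against 14 over all bins tested and 26 in the bins that rose. Over 5 equal classes of reference density, 24, 17, 17, 5 and 1 bins fell and 0, 0, 4, 4 and 8 rose from the poorest to the richest. The median log2 change of all bins ran from -0.45 in the poorest to 0.16 in the richest class. Without ethanol 1, 3 bins fell and 0 rose, and without ethanol 2, 19 fell and 16 rose. Without tamoxifen 1, 124 fell and 32 rose, and without tamoxifen 2, 9 fell and 1 rose.

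**Figure D5:**
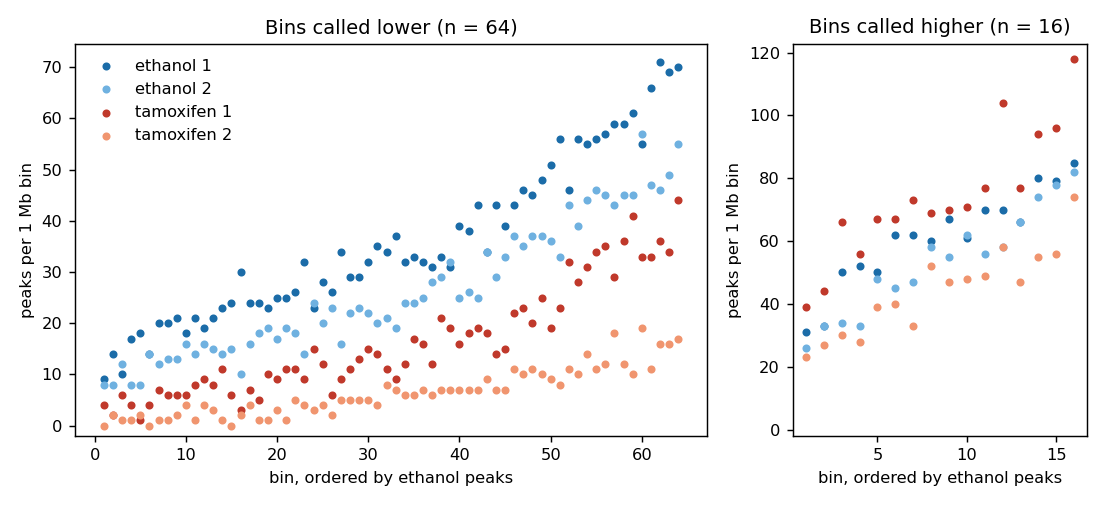
Peaks per 1 Mb bin (y axis) in each of the 4 libraries for the 64 bins that fell (left) and the 16 that rose (right) as a share of each list, ordered by their ethanol peaks (x axis). In the bins that fell both tamoxifen lists are low, with medians of 13.5 and 6 peaks against 32 and 23.5. Over all bins tested the medians are 32 and 17 against 44 and 33. In the bins that rose tamoxifen 1 is highest at a median of 70.5 and tamoxifen 2 lowest at 47, so these rises are relative to list length.

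The longest run of falling bins covered chr14:10000001-13000000, where the lists held 117 and 84 peaks with ethanol and 59 and 16 with tamoxifen. Its mean log2 change was -1.53, and the largest limma adjusted p of its 3 bins was 0.0473. None of the 3 bins was called without tamoxifen 2 (limma adjusted p = 0.269, 0.278 and 0.786), without ethanol 1 (0.0886, 0.255 and 0.283) or with quantile normalization (0.0950, 0.188 and 0.0656). The second lost its call in 6 of 8 settings and the third in 5 of 9. At chr11:24000001-26000000 there were 61 and 37 peaks with ethanol against 14 and 8 with tamoxifen (mean log2 change -1.68), and at chr6:98000001-100000000 there were 87 and 67 against 40 and 16 (-0.98). Neither chromosome 6 bin was called without tamoxifen 2 (limma adjusted p = 0.111 and 0.357), without ethanol 1 (0.0886 and 0.230) or without ethanol 2 (0.0858 and 0.0657). The second chromosome 11 bin lost its call in 5 of 9 settings, without ethanol 1 (0.350), tamoxifen 1 (0.126) and tamoxifen 2 (0.0501) among them. The first chromosome 11 bin kept its call in each of 8 other settings, as did the bin of chromosome 18 from 55000001 to 56000000, which holds a run of 8 lost regions. Of the 287 strong lost regions, 22 (7.67%) lay in bins that fell, against 1.60% of all regions in that class. Among these were the sites of chromosome 1 from 176356708 and of chromosome 3 from 16382718. These measures use the same peaks and are not independent.

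The only run of rising bins was chr4:145000001-147000000, with 155 and 140 peaks with ethanol and 222 and 132 with tamoxifen (mean log2 change 0.83, largest limma adjusted p of its 2 bins 0.0219). In number of peaks tamoxifen 1 stood above both ethanol lists there and tamoxifen 2 below both. The gained site at chr4:145438194-145438361 and the rank rise at chr4:146135260-146135524 lie in this interval. Neither bin of the run was called without tamoxifen 2 (limma adjusted p = 0.249 and 0.0822) or without ethanol 1 (0.251 and 0.0917).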

How the data were processed

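ATAC-seq peak lists of 4 libraries (2 Brgflfl Tax, 2 Brgflfl EtOH), 1 per sample, were analysed. Per the submitters' processing notes MACS2, Bowtie 0.12.9 and edgeR 3.12.1 were used on mm9, in roles not listed. The sources used here do not state read shifting, filters or peak-calling settings. The authors' deposited score of each peak has no stated unit and was used only to rank peaks within a list. Starts and ends (other values) are as deposited, printed counted from 1. The lists hold no read counts, so depth is unknown and no counting interval is given.

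Peaks overlapping by 1 bp were merged (checked with bedtools 2.31.1), and a region was detected with 1 or more peaks. Reference regions had a peak in all 5 wild-type DMSO lists. Isolation is the distance to the nearest other region. Regions in all 4 lists were fitted with limma 3.58.1 in R 4.3.3 (Benjamini-Hochberg) on the logit of the within-list rank of the best score and on log2 bp under peaks minus the list median. Bins of 1 Mb with a mean of 10 or more peaks were fitted as log2 of (peaks + 0.5) over the list total. List values were compared by exact permutation. Other steps used Python 3.11.15. The limma fits of width, rank and bins in the Brg1 line were checked on simulated data.

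Named regions are the strongest lost (first 15 and 1 per chromosome) and gained ones, the largest called rank changes, the longest runs of lost regions and of called bins; the text gives a selection of these. Regions, lists and tests were chosen with earlier results of these data known. The planned gene lists and markers were not run without an mm9 annotation. File names share a prefix by replicate number, so values within numbers were computed. Correlations of same-numbered deviations (0.050 for rank, 0.040 for width, 0.076 for bins) did not show pairing in these measures. Each is set relative to its list, so a shift of list length or detection shared by a number would not be seen. In both groups number 1 had the longer list and the higher detection of reference regions. Pairing in detection was not tested.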

Additional observations from a re-analysis of the deposited data

How the results depend on the processing

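No detection difference, change of the isolation gap or named rank or bin change reversed its sign in the settings tried. The excess of lost over gained regions did reverse without tamoxifen 2, under a rule that then asks less of a gain. The cause of each move was not tested except where the rule itself changed. With equal list length, 6546 regions were lost and 2614 gained, and 99 bins fell and 40 rose. The change of the isolation gap with tamoxifen was then -9.65 points. Detection of the strongest reference regions differed by -10.9 points with a reference from the 2 DMSO lists of 24 h, and by -20.6 points where peaks had to cover 50% of a region. Leaving out single libraries gave 15254 to 53128 lost and 2942 to 26994 gained regions (each side needs fewer lists then), 12 to 1102 falling and 0 to 109 rising ranks, 3 to 124 falling and 0 to 32 rising bins, and 0 to 5 widened regions. The detection difference then ran from -8.59 to -1.60 points for the strongest regions and from -31.1 to -9.99 for all reference regions. The change of the isolation gap with tamoxifen ran from -8.65 to -6.48. On the rank fraction 0 ranks fell and 0 rose. Quantile normalization left 18 falling bins and a mean of 20 or more peaks left 42.

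The replicate number was also taken as a block, though the rank, width and bin values did not show that it pairs the samples. With it limma called 996 falling and 169 rising ranks, 178 falling and 72 rising bins and 2 narrowed regions. Within numbers 1 and 2, detection of the strongest regions differed by -1.65 and -8.53 points, of all reference regions by -10.8 and -30.3, and the isolation gap by -8.00 and -7.14. Unknown depth and 2 libraries per group limit every comparison.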

Other observations

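Peaks outside the wild-type set were weak in every list. The peaks that touched no wild-type DMSO peak had median widths of 143 and 137 bp with ethanol and 147 and 129 bp with tamoxifen. Their median score percentiles were 18.2 and 17.4 against 20.2 and 19.1. Among the stronger 50% of each list, 3.61% and 1.59% of peaks with ethanol and 4.38% and 2.50% with tamoxifen lay outside the wild-type set, and the groups overlapped.

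The share of reference regions with a peak was lower on the X chromosome than on each autosome in all 4 libraries. A peak was found for 81.8% and 75.6% of its reference regions with ethanol and for 64.2% and 42.1% with tamoxifen. On the autosomes the ranges were 91.4% to 95.8% over both ethanol lists, 81.4% to 86.0% for tamoxifen 1 and 59.1% to 65.1% for tamoxifen 2.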
